A study of Mus musculus with 23 samples.

Results

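RNA crosslinked to wild-type CTCF in mouse neural progenitor cells (NPCs) was compared with the background recovered from the same cells without UV. The comparison used 7 of the 23 libraries of the series, the 3 of NPC WT and the 4 of NPC noXL, which the authors had merged into 1 list of crosslink sites for each group. Both groups came from 1 line of E14 embryonic stem cells (ESCs), in which both alleles of endogenous CTCF carry the AID2 degron and a doxycycline-inducible, Flag-Halo-tagged wild-type CTCF rescue sits at the Tigre locus. Neural progenitors were obtained after 2 days in N2B27 medium, and the cells were given 1 µM 5-Ph-IAA, which triggers the degron, with 1 µg/mL doxycycline for 24 hours. NPC WT cells then received 400 mJ/cm2 of UV at 254 nm and NPC noXL cells received none. Both were immunoprecipitated with anti-Flag beads, so all values describe the induced, tagged protein in the line used and not endogenous CTCF.

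CTCF is a zinc finger protein that binds DNA at the anchors of chromatin loops and halts cohesin there, and it also contacts RNA. In iCLIP2, UV links a protein to the RNA it touches, and reverse transcription stops beside the linked nucleotide, so the end of the cDNA marks the contact. Cells without UV give the RNA that follows the protein or the beads without such a link, and their sites serve as the background.

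Because the libraries of a group had been merged before sites were called, no value has a replicate error and no test between groups was possible. Ranges in parentheses are 95% Wilson binomial intervals, or ratios derived from them, and cover counting error only. On chromosomes 1 to 19, X and Y the WT list held 239258 sites and the noXL list 107227, a ratio of 2.23 (2.22 to 2.25). Read depth is unknown from the lists. Ratios for genes and RNA classes were therefore scaled to the sites within genes on their strand, 230147 in WT and 102002 in noXL. They are given as log2 of WT over noXL, where 0 is the ratio of these genic sites. By chromosome the unscaled ratio ran from 2.10 to 2.34, except on chromosome Y, where it was 5.69.

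Few markers of the labelled cell type could be measured. Of 12 neural progenitor markers, 8 had 0 WT sites, among them Sox1, Pax6, Hes5 and Fabp7. Nes, an intermediate filament of neural progenitors, had 28 WT and 14 noXL sites, and Zic2 had 21 and 6. Of 10 pluripotency markers, Esrrb, Klf4 and Tbx3 had 0 WT sites, whereas Nanog had 14 and Pou5f1 also 14. Of 10 mesoderm and endoderm markers 9 had 0 WT sites, and Lamb1, a laminin chain, had 97. In the ESC WT list the counts were 460 for Esrrb, 130 for Tbx3, 66 for Klf4, 85 for Nanog and 37 for Pou5f1. Zfp42 had 164 there, Tfcp2l1 343, Sox2 35 and Dppa3 10, against 11, 5, 9 and 1 in NPC WT. Dppa5a differed little, with 8 in ESC WT and 7 in NPC WT. Nes had only 2 sites in ESC WT and Zic2 had 1, although that list is longer, with 451137 sites. Lamb1 had 41 in ESC WT, fewer than its 97 in NPC WT. Msi1, an RNA binding protein of neural stem cells, had 13 WT sites in both cell types. Sox1, Pax6, Hes5 and Fabp7 had 0 WT sites there too. A low site count cannot tell fewer cells of a type from less RNA per cell. Ctcf itself, the gene whose protein is removed and replaced, had 28 WT and 17 noXL sites, a scaled log2 ratio of -0.49 (-1.31 to 0.40). Its sites do not measure the protein.

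Sites within 8 nt of each other were joined into regions. The regions shown are among the 6 WT and the 4 noXL regions with most sites that lay in an annotated gene on their strand, at most 1 for each gene, with ties ordered by score. They give examples of the sequence under dense sites within genes. Of the 4 WT regions with 8 sites only 1 lay in a gene, and of the 20 with 7 sites 11 did. The 29 bases around the best-scoring site of each region, read from the RefSeq copy of GRCm38 (mm10) on the strand of the site and written as RNA, are given 5′ to 3′ with the base called as crosslinked in capitals. The WT regions held 8 sites in Pabpc1, the cytoplasmic poly(A) binding protein, and 7 in each of Rps7, Rps24, Rps9 and Rpl31, which encode ribosomal proteins.
Pabpc1, chr15:36608960-36608988, minus strand: caggaggcggugcuUccccuucuccccgg
Rps7, chr12:28635868-28635896, minus strand: ucgcgagagccgucCcucuuucuaagccg
Rps24, chr14:24490703-24490731, plus strand: cggcagugagcgguCcucuuuuccuccuc
Rps9, chr7:3704022-3704050, plus strand: uccaaccgccuuguCucucuuugucucgg
Rpl31, chr1:39367908-39367936, plus strand: cuuccuuuccuacuUgggcccggcagagu

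The ribosomal protein sites lay in annotated 5′ UTRs, and the Pabpc1 site in an intron of the annotated gene. Each marked base lay 1 to 7 nt before the nearest annotated start of a protein-coding transcript. It was at -1 for Pabpc1 and Rps24, -2 for Rps9, -4 for Rps7 and -7 for Rpl31. A site is called 1 base before the end of the cDNA. A cDNA that ran to the 5′ end of the RNA would therefore also give a site just before the start, and such ends were not told apart from contacts. From the marked base on, an unbroken run of pyrimidines covered 13 bases in Pabpc1, 9 in Rps7 and 8 in Rps9. In Rps24 it covered all 15 bases up to the end of the window, so the run is at least that long. In Rpl31 the pyrimidines lay before the marked base. Messengers for ribosomal proteins and for Pabpc1 are known to begin with a pyrimidine tract, through which their translation is controlled. The noXL list was not empty at these places, with 2 sites in the Pabpc1 region and 1 in each of Rps7, Rps24, Rps9 and Rpl31. Each of these 5 windows occurs 1 time in the reference.

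The noXL regions shown are less dense. The only noXL region with 6 sites, 1 of the 2 with 5 sites and the only one with 4 lay outside annotated genes on their strand and are not shown. Within genes Gm26561 held 5 sites, and Gm15564, Mir6236 and Gm23130 held 3 each and were taken by score from 26 genic regions with 3 sites.
Gm26561, chr17:70963726-70963754, plus strand, intron: aguacgagaggaacCaaagguucagacau
Gm15564, chr16:35981804-35981832, minus strand, intron: gcuugucuaaccggCucuuccuaucauug
Mir6236, chr9:110281291-110281319, plus strand, noncoding exon: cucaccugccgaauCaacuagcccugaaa
Gm23130, chr10:23786529-23786557, minus strand, noncoding exon: uguaaagcuacaguGuuugcaugaugacu

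None of these 4 marked bases is a uridine. The WT list had 0 sites within the regions of Gm26561, Gm15564 and Mir6236 and 3 within that of Gm23130. The Mir6236 window occurs 2 times in the reference. The marked bases of Gm26561, Gm15564 and Mir6236 had a score of 708.396, the highest in the noXL list, which 101 of its sites shared. Whether their reads came from the annotated gene or from RNA of similar sequence made elsewhere was not tested, so the gene labels are uncertain. WT sites were also more often clustered. Single sites with no neighbour made up 84.9% of 201736 WT regions and 96.2% of 103256 noXL regions, and 286 WT regions but only 3 noXL regions held 5 or more sites.

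The base under the site separated the lists. UV links uridine most readily, and uridine lay under 63.9% of WT sites against 27.9% of noXL sites. Positions 500 and 1000 nt away gave 29.1% around WT sites and 29.8% around noXL sites. WT sites outnumbered noXL sites 5.11 times at uridine (5.05 to 5.18), 1.28 times at cytidine, 1.28 times at guanosine and 0.814 times at adenosine (0.800 to 0.829). The WT list pools 3 libraries and the noXL list 4, and per pooled library the ratio at adenosine was 1.09. In WT, the base before the site was uridine in 52.6% of cases and the base after it in 33.1%, against 27.2% and 23.1% in noXL. Of WT sites 28.7% (28.6 to 28.9) lay within a run of at least 3 uridines, compared with 6.62% (6.48 to 6.77) of noXL sites.

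**Figure D1:**
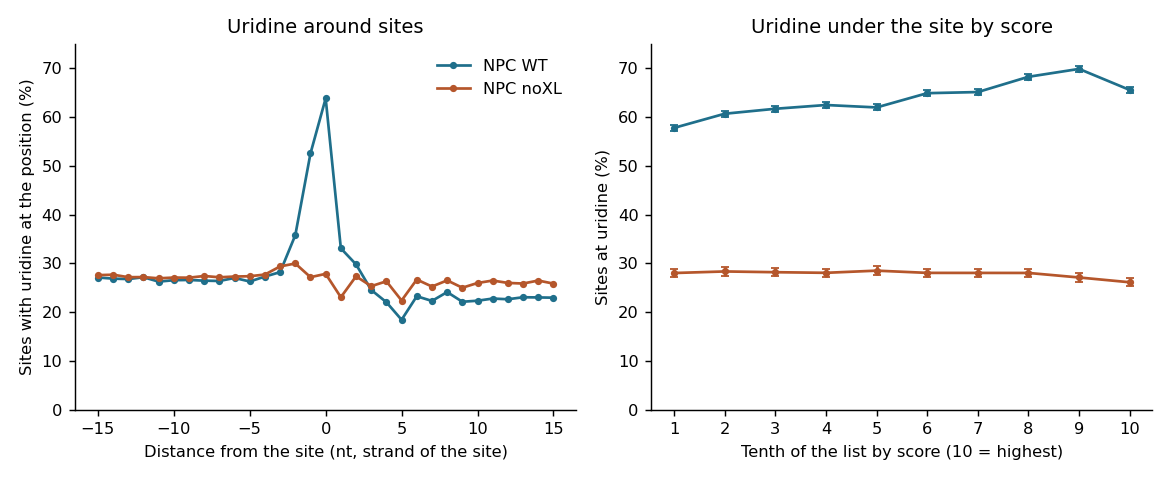
Left, percentage of sites with uridine at each position from 15 nt before to 15 nt after the site, read on its strand, for NPC WT and NPC noXL. Right, percentage of sites at uridine in score deciles of each list, with 95% Wilson intervals as bars; WT lies between 57.8% and 69.9% and noXL between 26.1% and 28.5%.

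Within the WT list the uridine share grew with the score that the caller gave a site, from 57.8% in the lowest decile to 69.9% in the last but one, and was 65.6% in the highest decile. In noXL it was between 27.1% and 28.5% in the lower 9 deciles and 26.1% in the highest. Among all sequences of 4 bases that occurred within 10 nt of a site, UUUG had the highest ratio of WT to noXL, in 18.5% of WT windows and 10.8% of noXL windows. UUUU followed, 1.65 times as frequent in WT windows as in the 10.9% of noXL windows that held it, and CUUU was in 16.7% and 10.7%. These sequences overlap in the letters they share. After shifting the WT windows by 500 and 1000 nt, the shares of UUUG, UUUU and CUUU were 12.5%, 13.4% and 12.6%. Against the shifted windows the highest ratios were those of CGCG, GCGG and CGGC, at 2.22, 1.95 and 1.92, compared with 1.48 for UUUG, whereas their ratios to noXL were 1.22, 1.15 and 1.13. The sequences with the lowest ratio were AUAA, in 4.35% of WT and 6.29% of noXL windows, and CAUA, in 3.68% and 5.32%. The sequences were counted on the strand of the site, and a match is a description of the letters only.

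Coding exons and 5′ UTRs held more of the WT list than of the noXL list, and introns less. Coding exons held 41.4% (41.3 to 41.6) of WT sites and 30.1% (29.8 to 30.4) of noXL sites, and introns 30.0% (29.8 to 30.2) and 45.2% (44.9 to 45.5). The 5′ UTRs held 8.18% (8.07 to 8.29) against 5.51% (5.37 to 5.65), and the 3′ UTRs 15.0% against 13.1%. Exons of noncoding RNAs held 1.54% against 1.26%, antisense positions 0.703% against 1.19%, and intergenic positions 3.10% against 3.68%. In ESCs, whose groups share no sample with the NPC groups, coding exons held 34.4% of WT and 31.9% of noXL sites, introns 36.7% and 43.3%, 5′ UTRs 7.27% and 5.94%, and 3′ UTRs 15.4% and 12.6%. The difference was smaller there than in NPCs for coding exons, introns and 5′ UTRs and larger for 3′ UTRs. It was not tested.

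Base and transcript part together showed a steeper order. At uridine, WT sites outnumbered noXL sites 8.96 times in coding exons (8.75 to 9.18), 6.23 times in 3′ UTRs, 5.86 times in 5′ UTRs and 6.06 times in noncoding exons. The ratio at uridine was 3.04 in introns (2.99 to 3.10), 3.11 in intergenic positions and 2.21 in antisense positions. At the other bases the ratio in introns was 0.775 (0.763 to 0.788), and in 3′ UTRs it was 0.953 (0.926 to 0.980). Per pooled library these became 1.03 and 1.27, so neither lay below 1. The 5′ UTRs had 2.55 times as many WT as noXL sites at other bases (2.46 to 2.64), and uridine made up 41.0% of their WT sites. It made up 66.4% in coding exons, 74.0% in 3′ UTRs, 64.1% in introns, 61.8% in noncoding exons, 45.3% in intergenic and 40.9% in antisense positions. In ESCs the ratio at uridine was 7.68 in coding exons and 4.75 in introns, and that at other bases was 2.93 in 5′ UTRs and 1.33 in introns, with 4 libraries in each ESC list.

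**Figure D2:**
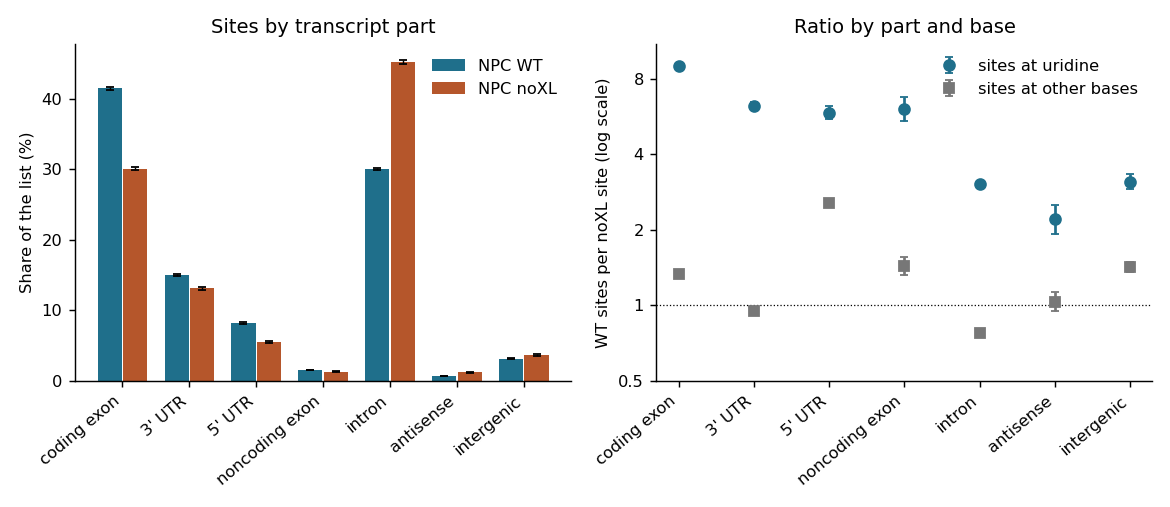
Left, share of the NPC WT and NPC noXL lists in each transcript part, with 95% Wilson intervals as bars. Right, WT sites per noXL site in each part on a log scale, for sites at uridine and at the other bases, with 95% intervals and a dotted line at 1; the uridine ratio is 8.96 in coding exons and 3.04 in introns, and other bases reach 2.55 in 5′ UTRs.

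The start of transcripts was examined because the WT regions printed above lay there, so this measure was chosen after their values were seen. Sites close to a start can include cDNAs that ran to the end of the RNA. In protein-coding genes outside the ribosomal proteins, 3.89% (3.81 to 3.98) of WT sites and 2.73% (2.63 to 2.83) of noXL sites lay within 10 nt of an annotated start. A further 3.10% and 2.20% lay 11 to 50 nt after a start, and 10.6% and 8.42% lay 51 to 500 nt after it. Uridine made up 35.8% of the WT sites within 10 nt of a start, 49.0% of those 11 to 50 nt after it and 59.3% of those 51 to 500 nt after it. In noXL it was 23.1%, 22.9% and 22.6%. In the cytosolic ribosomal protein genes 11.2% (9.87 to 12.6) of WT sites lay within 10 nt of a start, but so did 10.1% (7.75 to 13.1) of noXL sites, and these intervals overlap. Measured from the gene's own ends, the first 500 nt held 9.52% of WT and 6.54% of noXL sites of protein-coding genes, and the last 500 nt 4.95% and 2.87%.

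Within introns the lists differed in the distance to splice sites. Positions over 500 nt from a splice site held 67.2% (66.9 to 67.6) of WT and 72.4% (72.0 to 72.8) of noXL intron sites, and those 51 to 500 nt away held 25.5% (25.2 to 25.8) and 20.4% (20.1 to 20.8). The 50 nt before a 3′ splice site held 4.50% and 4.38%, with overlapping intervals, and the 50 nt after a 5′ splice site held 2.79% and 2.81%. Uridine made up 38.4% of the WT sites before a 3′ splice site and 66.2% of those far from any splice site. First introns held 34.5% of WT and 36.5% of noXL intron sites.

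Nearly all genic sites lay in protein-coding genes, and the classes with few sites departed from the ratio of all genic sites. Protein-coding genes took 97.5% of WT and 97.6% of noXL genic sites. Long noncoding RNAs took 1.44% and 1.54%, a scaled log2 ratio of -0.10 (-0.18 to -0.01). Small noncoding RNAs took 0.461% and 0.281%, a ratio of 0.71 (0.52 to 0.90) that became 1.58 with lists of equal length and 0.26 without WT sites within 5 nt of a noXL site. Pseudogenes took 0.351% and 0.166%, a ratio of 1.08 (0.84 to 1.32).

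Among the small RNAs the highest ratio was that of the snRNAs, the RNA components of the spliceosome. They held 314 WT and 29 noXL sites, a scaled log2 ratio of 2.26 (1.72 to 2.81), spread over 144 genes with a WT site. Uridine lay under 71.7% of the WT sites. The scaRNAs, which guide modification of snRNAs, held 47 and 7 sites, a ratio of 1.57 (0.46 to 2.69). The class misc_RNA, a mixed group, held 47 and 10 sites, a ratio of 1.06 (0.09 to 2.03), and annotated rRNA genes 67 and 17, a ratio of 0.80 (0.05 to 1.56). The snoRNAs, which guide modification of ribosomal RNA, held 369 and 138 sites, a ratio of 0.24 (-0.04 to 0.53), and the miRNAs 204 and 86, a ratio of 0.07 (-0.29 to 0.43). Both of these intervals include 0.
In ESCs snRNAs had 522 WT and 52 noXL sites, a ratio of 1.82 (1.41 to 2.23). The snRNA genes are many near-identical copies, and how the alignment divided reads between copies was not analysed here, so single copies are not named.

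Processed pseudogenes, copies of messengers without introns, had 447 WT and 56 noXL sites, a ratio of 1.82 (1.42 to 2.22). Their reads can come from the parent gene, and this share is uncertain for that reason. RNAs annotated as sense-intronic lay on the other side, with 85 WT and 89 noXL sites, a ratio of -1.24 (-1.67 to -0.81), and so did unclassified transcripts (TEC) with 573 and 404, a ratio of -0.67 (-0.85 to -0.49). Of the named nuclear RNAs, Malat1, the abundant RNA of nuclear speckles, had 41 WT and 5 noXL sites, 1.63 (0.57 to 3.16). Kcnq1ot1 and Airn, which silence neighbouring imprinted genes, had 205 and 90 sites and 152 and 73 sites, ratios of 0.00 and -0.13. Firre, a nuclear RNA of the X chromosome, had 172 and 61, a ratio of 0.31 (-0.10 to 0.74).

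At the level of genes, 4765 genes had at least 20 sites in both lists together. A gene was called higher at a scaled log2 ratio of 1 or more and lower at -1 or less, with 1 added to each count. Higher calls numbered 498, or 10.5% of the genes tested, and lower calls 310, or 6.51%. Without scaling, 3026 genes were higher and 21 lower. The median ratio was 0.03. A ratio whose 95% counting interval excluded 0 was found for 487 genes above 0, or 10.2%, and for 537 below 0, or 11.3%. The interval lay wholly above 1 for 24 genes and wholly below -1 for 34. Most calls rest on few sites, with medians of 27 WT and 4 noXL sites in higher genes and 16 and 18 in lower genes.

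**Figure D3:**
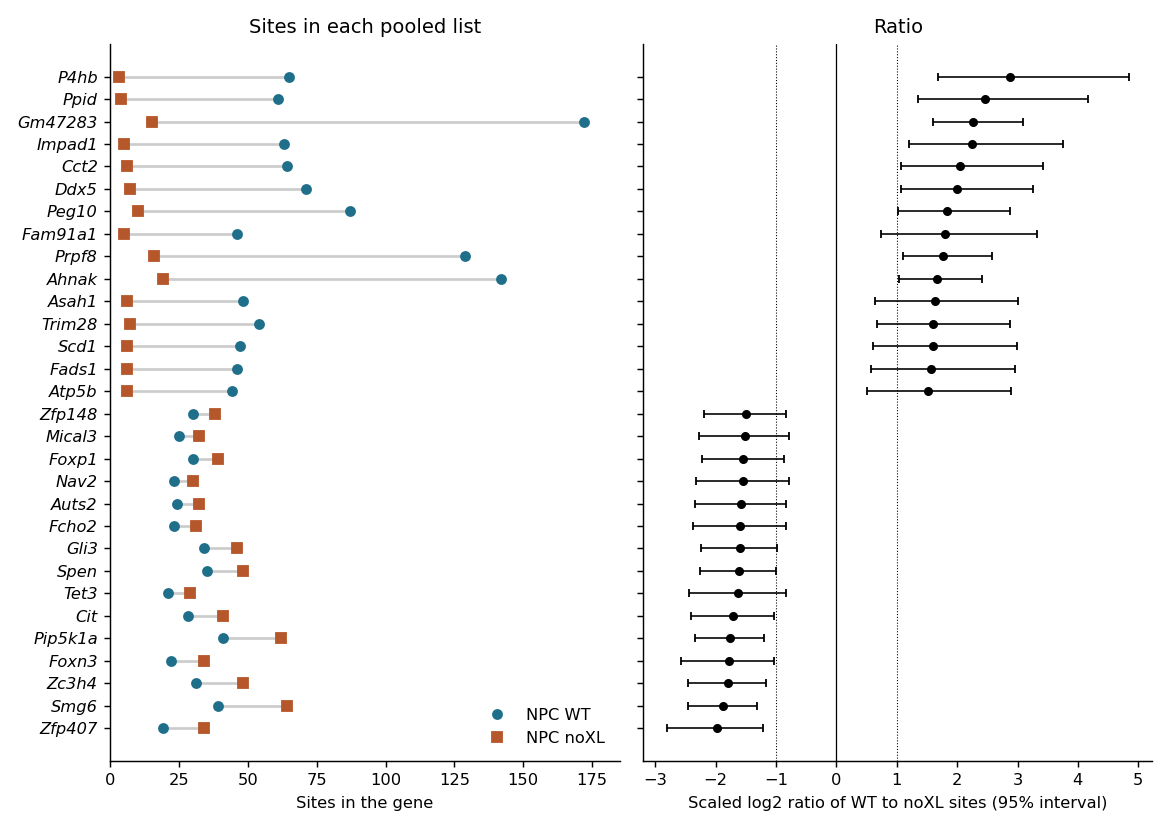
Left, sites in each pooled list for the 15 genes with the highest and the 15 with the lowest scaled ratio among genes with at least 50 sites, circles for NPC WT and squares for NPC noXL. Right, their scaled log2 ratios with 95% counting intervals, a solid line at 0 and dotted lines at 1 and -1; P4hb had 65 WT and 3 noXL sites and Zfp407 had 19 and 34.

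The highest ratios among genes with at least 50 sites, under 50% of them on another gene, went to messengers with few background sites. P4hb, the disulfide isomerase of the endoplasmic reticulum, had 65 WT and 3 noXL sites, a scaled log2 ratio of 2.87 (1.68 to 4.85). Ppid, a peptidyl-prolyl isomerase, had 61 and 4, a ratio of 2.46 (1.35 to 4.16), and Impad1 had 63 and 5, a ratio of 2.24 (1.21 to 3.75). All genic sites stood at an unscaled log2 ratio of WT to noXL of 1.17, which is 0 on the scale used here.
Ddx5, an RNA helicase of the nucleus, had 71 WT and 7 noXL sites, a ratio of 2.00 (1.07 to 3.26). Prpf8, the core protein of the spliceosome, had 129 and 16, a ratio of 1.76 (1.10 to 2.58), and 121 of its WT sites lay in exons.
Others were Ahnak, which has a very long coding exon, with 142 and 19 sites (1.66), Trim28, a corepressor of retroelements, with 54 and 7 (1.61), Scd1 and Fads1, desaturases of fatty acids, with 47 and 6 (1.60) and 46 and 6 (1.57), and Atp5b, a subunit of the mitochondrial ATP synthase, with 44 and 6 (1.51). The remaining 5 of the 15 highest genes, Gm47283, Cct2, Peg10, Fam91a1 and Asah1, had ratios from 1.63 to 2.26. Gm47283 lies on chromosome Y, from 90784738 to 90816464, and 167 of its 172 WT sites lay in introns. In ESCs, 14 of the 15 ratios were above 0, as were 51.5% of all 6208 genes tested there, and Fads1 stood at -0.07. Only 4 of the 15, Gm47283, Ddx5, Trim28 and Scd1, reached 1 in ESCs, and Ppid, Prpf8, Asah1 and Impad1 lay between 0.28 and 0.38.

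Of the 8 tested genes without any noXL site, Rbm45, an RNA binding protein of developing neurons, had 35 WT sites. Against a floor of 3 noXL sites in the list this was at least 5.17-fold higher after scaling. Mrpl13 and Prepl had 23 WT sites each, at least 3.40-fold higher. In ESCs Rbm45 was not higher, with 40 WT and 14 noXL sites, a ratio of -0.06.

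In all 15 genes with the lowest ratios noXL sites outnumbered WT sites, and per pooled library they did so in 10. Zfp407, a zinc finger gene, had 19 WT and 34 noXL sites, a scaled log2 ratio of -1.98 (-2.81 to -1.21). Smg6, the endonuclease of nonsense-mediated decay, had 39 and 64, a ratio of -1.87 (-2.46 to -1.32). Zc3h4, a zinc finger protein that restrains noncoding transcription, had 31 and 48, a ratio of -1.79 (-2.45 to -1.16).
Of the other genes, Foxn3 had 22 and 34 sites (-1.78), Foxp1 30 and 39 (-1.54), Gli3, the Hedgehog effector, 34 and 46 (-1.60), Spen, a corepressor that binds Xist RNA, 35 and 48 (-1.62), and Tet3, a methylcytosine oxidase, 21 and 29 (-1.62). Pip5k1a, Cit, Fcho2, Auts2, Nav2, Mical3 and Zfp148 had ratios from -1.76 to -1.51.
In each of these 15 genes the uridine share of the WT sites was above that of the noXL sites of the same gene. It ran from 38.1% in Tet3 to 80.0% in Zfp148 in WT and from 17.1% in Cit to 41.9% in Pip5k1a in noXL. Setd1b, a histone H3 methyltransferase with 30 sites in all, had the lowest ratio of the chromatin genes, with 8 WT and 22 noXL sites, -2.53 (-3.77 to -1.50). The lowest of all protein-coding genes was Gtdc1, with 3 WT and 20 noXL sites, of which 19 were in introns, -3.57 (-5.57 to -2.25).

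The genes with most sites were not those with high ratios. The 10 genes with most WT sites had ratios from -0.32 to 0.36. Dst, a cytoskeletal linker, and Lrp2, an endocytic receptor of neuroepithelium, had 468 WT sites each with 161 and 168 noXL sites, ratios of 0.36 (0.11 to 0.62) and 0.30 (0.05 to 0.56). Of the 10 genes with most noXL sites, 7 were also among the 10 with most WT sites. Exoc4, a subunit of the exocyst, had 660 and 361 sites, -0.31 (-0.49 to -0.12), and Ankrd11, a chromatin regulator, 535 and 296, -0.32 (-0.52 to -0.12). Gm20388 had 789 and 355 sites, but 96.2% of them lay on another gene as well and its values are uncertain.

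Gene length went with the ratio. In quintiles of 953 genes by annotated length, the median scaled log2 ratio was 0.41 in the shortest genes, then 0.22, 0.07 and -0.12, and -0.38 in the longest. Of the shortest quintile 21.9% of genes were called higher and 1.99% lower, and of the longest 2.94% higher and 17.5% lower. Higher genes had a median length of 15516 nt and lower genes 85908 nt.

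**Figure D4:**
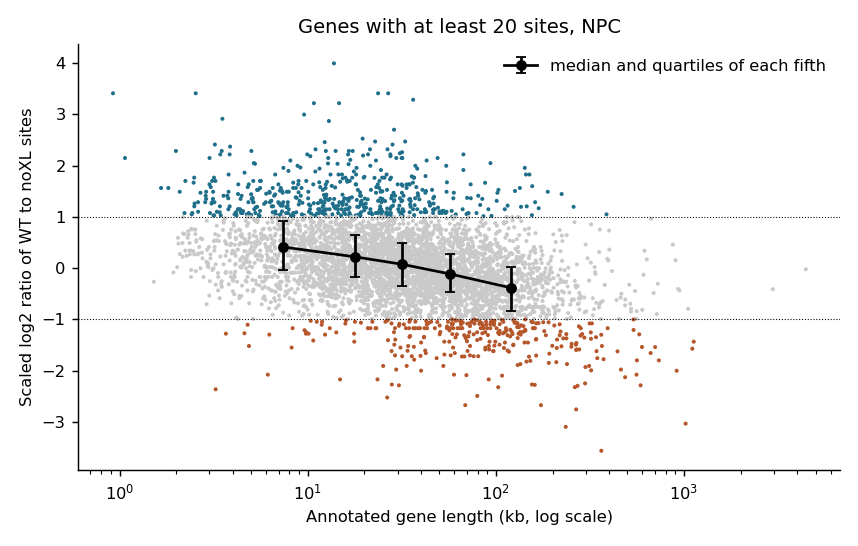
Scaled log2 ratio of WT to noXL sites against annotated gene length on a log axis for the 4765 genes tested in NPCs, with higher calls in blue, lower calls in orange and dotted lines at 1 and -1. Black points and bars are medians and quartiles of the length quintiles, placed at the median length of each; the medians run from 0.41 to -0.38.

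The same order held for exons and introns apart. Sites in exons, summed over each quintile, had ratios of 0.63 in the shortest genes and 0.19 in the longest, and sites in introns -0.02 and -0.75. Within 1277 genes that could be measured in both parts, the exon ratio lay above the intron ratio in 1085, or 85.0%, with medians of 0.35 and -0.48. In the tested genes exons held 6.08 WT sites and introns 0.295 WT sites per kb, a density 20.6 times higher in exons. Without UV the densities were 2.07 and 0.189 per kb, 10.9 times higher in exons.

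The gene groups were listed with earlier results of these data known, so their counts are a description and are read beside the 10.5% higher and 6.51% lower of all genes tested. Members that were measured in few sites fell outside: histone genes, for example, had 0 of 67 members with enough sites. Ratios from exon, intron or uridine sites alone were scaled to the genic sites of that kind only. Their 0 is therefore not the 0 of all sites, and their medians cannot be set against those of all sites. On these scales the medians of all genes tested were -0.09, 0.11 and -0.09.

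**Figure D5:**
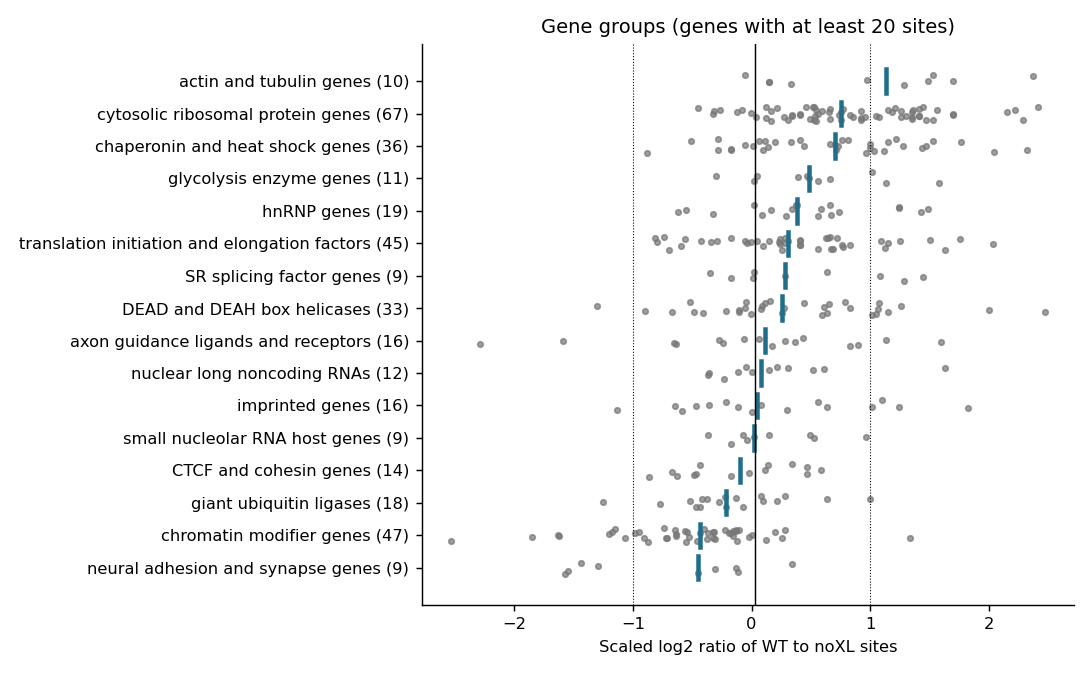
Scaled log2 ratio of WT to noXL sites for each tested member (grey points) of 16 gene groups, with the number tested in brackets and the group median as a blue bar. The solid line is the median of all genes tested, 0.03, and dotted lines mark 1 and -1; medians run from 1.13 in actins and tubulins to -0.45 in neural adhesion genes.

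Genes of protein synthesis and folding had medians above 0, as did short genes in general. In the quintile next to the shortest, which holds the median lengths of the translation factor, chaperone, hnRNP, helicase and glycolysis groups, the median of all genes was 0.22 and 12.8% were higher. Of 82 cytosolic ribosomal protein genes 67 were tested, 25 were higher and 0 lower, and the median was 0.75. Rpl14 was highest with 23 WT and 1 noXL sites, 2.41 (0.80 to 5.89), followed by Rps23 with 21 and 1 (2.29), and Rps18 was lowest with 27 and 16, -0.45 (-1.30 to 0.46). These genes are short, with a median length of 3737 nt, and the shortest quintile of all genes had 21.9% higher. With exon sites alone 12 of 35 were higher, where 9.62% of all genes were, and with uridine sites alone 7 of 37, where 10.9% of all genes were higher and 9.33% lower.
Of 45 tested translation initiation and elongation factors 8 were higher and 0 lower, with a median of 0.30, and with exon sites alone 6 of 42 were higher with a median of 0.17. Eif5a, which helps the ribosome through proline stretches, had 36 and 3 sites (2.04), Eef1a1, which delivers tRNA to the ribosome, 41 and 5 (1.63), and Eif4g1, the scaffold of the cap-binding complex, 114 and 17 (1.50).
Of 36 chaperonin and heat shock genes 11 were higher and 0 lower, with a median of 0.71. Cct5 had 44 and 3 sites, 2.32 (1.10 to 4.30), Cct2 64 and 6, 2.04 (1.07 to 3.42), and Hsp90b1, a chaperone of the endoplasmic reticulum, 66 and 10 (1.43). Hspg2, which the name pattern also caught but which encodes the basement membrane protein perlecan, had 305 and 48 (1.47), and without it 10 of 35 were higher with a median of 0.70. Dnajc5 was lowest at -0.88 with 26 and 21 sites.
The replication-dependent histone genes had 269 WT and 43 noXL sites summed over 67 members, a scaled ratio of 1.44. Of these members 39 had 0 noXL sites. Hist1h1d, a linker histone, had 14 WT and 1 noXL sites. Their near-identical copies make single members uncertain.

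RNA-binding, cytoskeletal and glycolysis groups had medians above 0 over all sites. Of 19 hnRNP genes 4 were higher and 0 lower, with a median of 0.38, led by Hnrnpa1 with 56 and 8 sites (1.49) and Hnrnpk with 90 and 14 (1.43). Of 9 SR splicing factor genes, with a median of 0.28 against 0.41 in the quintile of their median length, 3 were higher, Srsf5 with 48 and 7 sites (1.44), Srsf2 with 21 and 3 (1.29) and Srsf11 with 90 and 18 (1.09). Of 33 DEAD and DEAH box helicases, with a median of 0.25, 8 were higher and 1, Ddx41 with 10 and 11 sites (-1.30), was lower. With exon sites alone the SR genes had a median of -0.02, with 2 of 7 higher and 1 lower, and with uridine sites alone the helicases had a median of -0.01, with 3 of 22 higher.
Of 10 actin and tubulin genes 5 were higher, with a median of 1.13, and Tuba1a, a tubulin of neurons, had 34 and 2 sites, 2.37 (1.00 to 4.83), although 91.7% of its sites also lay on another gene. The actin and tubulin genes are short, with a median of 3793 nt, and of the shortest quintile of all genes 21.9% were higher. With uridine sites alone only 2 of them could be measured, 0 were higher and the median was -0.15. Of 11 glycolysis enzyme genes 3 were higher, Pfkl with 26 and 3 sites (1.58), Eno1 with 73 and 14 (1.13) and Aldoa with 31 and 6 (1.02).

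Chromatin modifier genes lay on the other side. Of 47 tested, 8 were lower and 1 higher, and 41 had a ratio of 0 or below, with a median of -0.44. The lower genes were Setd1b, Kat6b with 9 and 15 sites (-1.85), Kdm6a with 15 and 21 (-1.63), Tet3, Kdm2b with 48 and 49 (-1.20), Setd2 with 52 and 52 (-1.17), Crebbp with 67 and 66 (-1.15) and Ash1l with 41 and 38 (-1.07), which write or erase marks on histones or DNA. Chd4, the remodeller of the NuRD complex, was the exception with 153 and 26 sites, 1.34 (0.79 to 1.98). These are long genes, with a median of 77942 nt. That length falls in the quintile next to the longest, where the median ratio was -0.12 and 6.93% of genes were lower. In the longest quintile the median was -0.38 and 17.5% were lower. With exon sites alone 9 of 45 were lower and 2 higher, with a median of -0.50, where 7.91% of all genes were lower.
Of 9 neural adhesion and synapse genes 4 were lower, Auts2, Nav2, Dab1 with 9 and 11 sites (-1.44) and Ank2 with 22 and 24 (-1.29), and 0 were higher. Their median length was 616270 nt. With exon sites alone 2 of 7 were lower, with a median of -0.14. With intron sites alone, scaled to intron sites, 0 of 6 were lower, with a median of 0.16 beside 0.11 in all genes. On that scale 10.8% of all genes were higher and 9.54% lower. Of 16 axon guidance genes 2 were higher, Sema3c with 40 and 5 sites (1.60) and Plxna1 with 103 and 20 (1.13), and 2 lower, Slit3 with 11 and 25 (-2.29) and Efna5 with 11 and 15 (-1.59). Giant ubiquitin ligases had 1 lower gene of 18, Hace1 with 18 and 19 sites (-1.25). CTCF and cohesin genes had 0 called in either direction of 14, from -0.86 in Yy1 to 0.59 in Wapl. With intron sites alone 2 of 11 CTCF and cohesin genes were lower, where 9.54% of all genes were. With uridine sites alone 2 of 12 were lower, where 9.33% of all genes were.

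Imprinted genes went both ways. Of 16 tested, Peg10, a retrotransposon-derived gene expressed from the paternal allele, had 87 and 10 sites, 1.83 (1.02 to 2.88). Igf2, a growth factor, had 63 and 11 (1.24), H19, its noncoding neighbour, 28 and 5 (1.10), and Mest 90 and 19 (1.01). Sgce, which lies beside Peg10, was lower with 35 and 34 sites, -1.13 (-1.81 to -0.46).
Grb10, an adaptor of the insulin receptor that the study followed, is encoded on the minus strand of chromosome 11 between 11930508 and 12038683 and had 279 WT and 143 noXL sites, -0.21 (-0.50 to 0.08). In its exons there were 49 WT and 12 noXL sites and in its introns 230 and 131. Podxl, a sialomucin of cell surfaces that the study also followed, is encoded on the minus strand of chromosome 6 between 31519488 and 31563981 and had 46 and 12 sites, 0.68 (-0.14 to 1.67). Neither gene passed the limits, and both intervals include 0, which is the ratio of all genic sites and not equal counts. The study picked these genes partly by CLIP reads higher in NPCs than in ESCs, a different measure. In the ESC WT list Podxl had 8 sites and Grb10 had 15.
The best-scoring WT site of each gene is given with the base called as crosslinked in capitals. Single sites do not stand for a gene, since uridine lay under 56.5% of the WT sites of Podxl and 69.2% of those of Grb10. The Podxl site lay in the 3′ UTR after a run of uridines and had 0 noXL sites in its window, and the Grb10 site lay at an annotated start in the 5′ UTR and had 1.
Podxl, chr6:31520519-31520547, minus strand: cuuugccuauuuuuUggacaauacacugg
Grb10, chr11:12037387-12037415, minus strand: ggggguggggugcgGggaggcggcaggaa

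The ESC groups, which share no sample with these, gave a partly different order. Among 4312 genes tested in both cell types the ratios had a Spearman rho of 0.396 and a Pearson r of 0.414. Genes are not replicates, and each shares its length and base composition between the cell types. Of all genes tested in ESCs 8.12% were higher and 6.6% lower. Of the 4312 shared genes 451, or 10.5%, were higher in NPCs and 224, or 5.19%, in ESCs, and the 86 higher in both made up 19.1% of the first and 38.4% of the second. Lower genes numbered 230, or 5.33%, and 223, or 5.17%, and the 56 lower in both made up 24.3% and 25.1%. Whether the ratios of any gene differ between the cell types was not tested.
The NPC ΔZF1 list, from a rescue protein lacking part of zinc finger 1, shares the noXL list used here and is shorter than the WT list, with 158490 sites. For 3 genes picked after their values were seen, the counts are given side by side. For P4hb it held 16 sites, beside 65 in WT and 3 in noXL, and the scaled log2 ratios to noXL were 1.50 in ΔZF1 and 2.87 in WT. For Smg6 it held 20 beside 39 and 64, with ratios of -2.22 and -1.87. For Gli3 it held 75 beside 34 and 46, with ratios of 0.11 and -1.60.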

How the data were processed

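Members, gene lists and limits were chosen with earlier results of these data known. Per the labels and the study's methods, the authors aligned iCLIP2 reads to mm10 with STAR, collapsed PCR duplicates by UMI with UMI-tools, pooled the libraries of a group and called sites with PureCLIP. The deposited score of a site comes from PureCLIP and is not scaled to depth. It served to rank sites only. Site lists favour RNAs with many reads, and deeper libraries can give longer lists.

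Sites were assigned to the basic transcripts of GENCODE release M21 on their strand, in the order coding exon, 3′ UTR, 5′ UTR, noncoding exon, intron, antisense and intergenic. For each gene, 1 was added to both counts before the log2 ratio, at least 20 sites were required, and the limits were 1 and -1. The sites outside chromosomes 1 to 19, X and Y, 369 in WT and 116 in noXL, were left out. For RNA classes a site was given to the shortest gene with an exon there, or else the shortest gene. Named genes were Ctcf, Podxl, Grb10, markers, the 10 genes with most sites of each list, the 15 highest and 15 lowest ratios from 50 sites on with under 50% of them on another gene, and the extremes of each list and class. Regions outside annotated genes or on chromosome 18 were passed over when regions were chosen for printing. Other members past the limits, the transcript-start measure and genes without noXL sites were named after their values were seen. A site on overlapping genes counted for each. Intervals and the floor of 3 sites cover counting error only, and no p-values were computed. Alternatives changed the score minimum, bases, merging, site and gene minimums, pseudocount and scaling. Calculations were tested on simulated data. Python 3.11.15, numpy 2.4.6, pandas 2.3.3, pysam 0.24.0 and matplotlib 3.10.9 were used. 1 of the WT regions with most sites is not reported here.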

Additional observations from a re-analysis of the deposited data

Results flagged for a closer look

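In 8 genes the scaled log2 ratio of WT to noXL passed the limits in opposite directions in NPCs and ESCs, and the difference was not tested. Lower in NPCs and higher in ESCs were A930004J17Rik (-1.27 and 1.52), Csnk1g3 (-1.17 and 2.14), Lrrc47 (-1.28 and 1.15), Shoc2 (-1.11 and 1.37) and the stem cell marker Zfp42 (-1.05 and 1.61). Of the sites of A930004J17Rik 100% also lay on another gene. Zfp42 had 11 WT and 10 noXL sites in NPCs, and its interval there, -2.24 to 0.16, includes 0. Higher in NPCs and lower in ESCs were Gpc1, a cell surface proteoglycan (1.41 and -2.32), Ppp2r5c, a phosphatase subunit (1.20 and -1.06), and Sub1, a transcription coactivator (1.36 and -1.19).

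Mitochondrial sites, which enter no comparison above, were 123 of 239627 in NPC WT, a share of 0.0513% (0.0430 to 0.0612), and 23 of 107343 in NPC noXL, a share of 0.0214% (0.0143 to 0.0322). The difference was not tested.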

How the results depend on the processing

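No paired analysis was possible because each list pools its libraries, and leaving out a library was not run for that reason. The shifts in uridine, introns and coding exons kept their direction under every alternative run for them. Read depth is unknown, and the higher genes had a median of 4 noXL sites.

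The ratio of list lengths was 1.71 with sites of at least the median score, 5.11 at uridine, 1.12 at other bases, 2.09 without WT sites within 5 nt of a noXL site, 1.95 with neighbouring sites merged and 2.98 per pooled library. The uridine share of WT minus noXL became 39.4 points with the score minimum, 39.2 with lists of equal length and 37.2 without WT sites near noXL sites. The intron difference of -15.1 points became -21.5 with the score minimum, -21.6 at equal length, -20.5 at uridine, -13.2 at other bases, -14.3 without sites near noXL, -13.5 after merging, -14.3 with introns given priority over exons and -14.6 with all annotated transcripts, an alternative chosen after seeing the data. The coding exon difference of 11.4 points became 15.4, 14.1, 18.5, 6.33, 11.9 and 10.7 under the first 6 of these settings, and 10.8 with introns given priority. The small noncoding ratio of 0.71 became 1.02 with the score minimum, 1.58 at equal length and 0.26 without WT sites near noXL sites, an alternative that removes sites from WT only.

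The number of genes tested differs between settings, so counts of calls are given with it. Against 498 higher genes of 4765 tested, the count was 320 of 2612 with the score minimum, 301 of 2755 at uridine, 110 of 2461 at other bases, 1024 of 6795 from 10 sites a gene, 87 of 1971 from 50 sites, 3026 of 4765 without scaling and 157 of 1457 with intron sites alone. Against 310 lower genes it was 183, 586, 86, 21 and 139 in the last 5 of these settings. Higher genes made up 61.6% of all calls, 99.3% without scaling and 57.6% when scaled to the median gene. Of the higher genes 138 were also called at uridine alone and 49 at other bases alone, and 244 with exon sites alone. Of 1153 values of 91 named genes under the alternatives, 126 moved and 3 changed the sign of a called gene. Leaving out the scaling adds 1.17 to every gene, and Zfp42 then stood at 0.13 and Sgce at 0.041. With exon sites alone, scaled to exon sites, Hace1 stood at 0.10. The other causes were not tested.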
